A study of Mus musculus with 8 samples.

Results

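Klf6 is a zinc finger transcription factor of the Krüppel-like family, and the peaks described here are the sites of its chromatin immunoprecipitation (ChIP) signal that lie closest to the starts of genes. A peak was taken when the deposited list named a gene for it and placed its summit from 2000 bp upstream to 2000 bp downstream of the transcription start site (TSS) of that gene. Of 36280 peaks in 4 lists, 396 met this rule, and they merged into 343 regions when peaks at most 500 bp apart were joined. The 396 peaks carry the names of 333 genes. The rule used position only, and tags, enrichment, sequence and replication were not used to choose the peaks. Sequence changes with distance from a TSS, however, so contrasts in base composition, motifs and repeated sequence are not independent of the rule.

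The cells were primary oligodendrocyte progenitors (OLP) of C57BL/6 mice, grown on poly-D-lysine with PDGF-AA at 10 ng/ml and bFGF at 20 ng/ml, and immature oligodendrocytes (iOL), which are OLP exposed to triiodothyronine (T3) at 40 ng/ml for 18 h. The same rabbit polyclonal Klf6 antibody was used in all 4 ChIP samples. Each stage has 2 biological replicates, labelled A and B. The 4 matching inputs were used by the authors to call peaks and are not analysed here on their own, and a list of peaks does not measure expression, so the identity of the cells could not be checked against marker genes.

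Krüppel-like factors bind GC-rich boxes and CACCC elements through a C-terminal set of zinc fingers, and many of their known target sites lie in promoters. The region around a TSS is where RNA polymerase II and general factors assemble, and in mammals it is often a CpG island, rich in G and C and poor in interspersed repeats. Oligodendrocytes are the cells that form myelin in the central nervous system. A further element matters for the sequences below. Genes of transfer RNA (tRNA) are transcribed by RNA polymerase III from promoters that lie inside the gene, and one part of these promoters, the B box, has a well conserved core.

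The sequences that carry the results are shown first, 5′ to 3′ on the plus strand of mm9, up to 100 bases to either side of the summit. The first set is the 3 regions that were found in 3 or 4 samples without being classed as repeated sequence, a term explained below. Capitals mark the letters GGNTCGA, read on either strand, which occur in the core of the tRNA B box.

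Trim41, chr11:48631982-48632181, summit 1189 bp upstream in OLP A: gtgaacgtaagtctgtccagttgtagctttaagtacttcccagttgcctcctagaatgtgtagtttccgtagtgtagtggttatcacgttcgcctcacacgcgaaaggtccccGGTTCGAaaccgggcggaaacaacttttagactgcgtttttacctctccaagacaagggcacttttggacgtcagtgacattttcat

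Hist1h4h, chr13:23622161-23622360, summit 651 bp upstream in OLP A: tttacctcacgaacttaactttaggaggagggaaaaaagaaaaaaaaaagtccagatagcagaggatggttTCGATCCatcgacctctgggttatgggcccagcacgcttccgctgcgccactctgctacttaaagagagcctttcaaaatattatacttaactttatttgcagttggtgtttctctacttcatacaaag

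Ilf2, chr3:90279722-90279921, summit 300 bp upstream in OLP A: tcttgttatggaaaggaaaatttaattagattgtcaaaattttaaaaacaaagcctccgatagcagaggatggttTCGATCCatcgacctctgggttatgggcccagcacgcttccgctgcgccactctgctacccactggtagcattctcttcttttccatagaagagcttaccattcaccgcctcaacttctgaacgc

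The other 2 regions found in all 4 samples are made of sequence that recurs in the genome, and no motif is marked in them because GGGCGG does not occur in these windows, nor does CACCC or the B box core.

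Slc24a3, chr2:145067114-145067313, summit 1132 bp upstream in OLP A: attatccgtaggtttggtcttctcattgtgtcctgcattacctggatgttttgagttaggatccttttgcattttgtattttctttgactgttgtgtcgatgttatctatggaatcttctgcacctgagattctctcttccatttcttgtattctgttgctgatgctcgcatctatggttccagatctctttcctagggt

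Prr14, chr7:134613447-134613646, summit 1580 bp upstream in OLP A: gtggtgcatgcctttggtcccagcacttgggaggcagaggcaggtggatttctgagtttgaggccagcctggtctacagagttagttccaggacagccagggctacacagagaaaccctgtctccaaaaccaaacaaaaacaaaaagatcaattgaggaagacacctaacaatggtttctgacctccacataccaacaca

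The next set shows peaks that hold a GC box near a TSS, with GGGCGG and CACCC on either strand in capitals. Windows were shortened where they reached transcribed sequence, so the Tob2 window lies upstream of its TSS and does not include its summit.

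Dctn5, chr7:129276461-129276554, summit 43 bp upstream in iOL B: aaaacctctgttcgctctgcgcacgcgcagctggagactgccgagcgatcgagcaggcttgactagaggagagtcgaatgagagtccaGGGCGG

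Tob2, chr15:81688757-81688845, summit 10 bp downstream in iOL B: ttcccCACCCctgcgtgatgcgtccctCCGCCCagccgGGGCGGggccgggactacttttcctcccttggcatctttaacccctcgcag

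Rangap1, chr15:81560494-81560693, summit 245 bp upstream in OLP B: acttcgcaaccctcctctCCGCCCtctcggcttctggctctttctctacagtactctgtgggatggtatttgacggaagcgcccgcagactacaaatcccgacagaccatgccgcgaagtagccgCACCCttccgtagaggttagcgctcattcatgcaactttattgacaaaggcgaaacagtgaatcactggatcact

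The last set holds Padi4, whose region was found in both OLP samples and neither iOL sample and is not classed as repeated. It also holds Kpna1, the gene of importin α5, with the same capitals.

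Padi4, chr4:140329453-140329652, summit 565 bp downstream in OLP A: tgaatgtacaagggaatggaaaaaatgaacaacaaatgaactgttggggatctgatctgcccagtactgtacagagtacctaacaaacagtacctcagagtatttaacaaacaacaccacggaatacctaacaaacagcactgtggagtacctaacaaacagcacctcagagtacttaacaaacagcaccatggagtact

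Kpna1, chr16:35981727-35981926, summit 1621 bp upstream in iOL A: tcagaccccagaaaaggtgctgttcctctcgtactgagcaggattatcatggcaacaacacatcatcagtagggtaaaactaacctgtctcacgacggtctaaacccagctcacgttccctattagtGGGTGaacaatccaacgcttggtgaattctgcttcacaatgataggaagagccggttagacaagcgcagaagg

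Few Klf6 peaks lay near a TSS, and the lists of OLP held more of them than those of iOL. There were 121 in OLP A, 114 in OLP B, 84 in iOL A and 77 in iOL B. These counts did not overlap between the stages, and the mean was 117.5 ± 4.95 in OLP and 80.5 ± 4.95 in iOL (SD, n = 2 each), a difference of 37 peaks (two-sided exact permutation test, p = 0.333, the smallest that 2 samples against 2 can give). The difference was 20.0 peaks without repeated sequence, 21.5 with at least 10 tags and 12.5 with a score of at least 50 (exact permutation test, p = 0.667 each). The unrepeated counts overlapped between the stages, at 36 in OLP A and 85 in OLP B against 28 in iOL A and 53 in iOL B. Within each replicate letter the OLP list was also longer as a whole. As a share of all peaks of the sample, the peaks near a TSS made up 0.972% (95% Wilson interval 0.814% to 1.16%) in OLP A, 1.46% (1.21% to 1.75%) in OLP B, 0.822% (0.664% to 1.02%) in iOL A and 1.33% (1.07% to 1.66%) in iOL B. These shares overlapped between the stages and ordered the samples by replicate letter, with both B samples above both A samples (stage difference 0.137 percentage points, exact permutation test, p = 0.667).

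Peaks were more often upstream than downstream of the TSS in all 4 samples, with 76 against 45 in OLP A, 64 against 50 in OLP B, 48 against 36 in iOL A and 46 against 31 in iOL B. The lists name a gene for peaks up to 50 kb upstream but 5 kb downstream of a TSS, a limit that lies outside the 2 kb on both sides. On the upstream side, the density toward the TSS differed by replicate letter. In the 500 bp upstream it was 36.0 peaks per kb in OLP A and 12 in iOL A, below the 44.3 and 38.3 found beyond 2000 and up to 5000 bp upstream, while in OLP B and iOL B it was 42.0 and 30, above 24.7 and 19.3. Within 100 bp of the TSS lay 3 peaks in OLP A, 5 in OLP B, 0 in iOL A and 12 in iOL B. Just inside the 2 kb limit were the peaks of Net1 at 1995 bp upstream in iOL B (10 tags, 8.46-fold) and of Hist2h2bb at 1995 bp downstream in iOL A (8 tags, 17.4-fold). Just outside were those of Rrp1 at 2005 bp upstream (7 tags, 14.6-fold) and of Gm10377 at 2011 bp downstream (8 tags, 12.9-fold), both in OLP A.

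**Figure D1:**
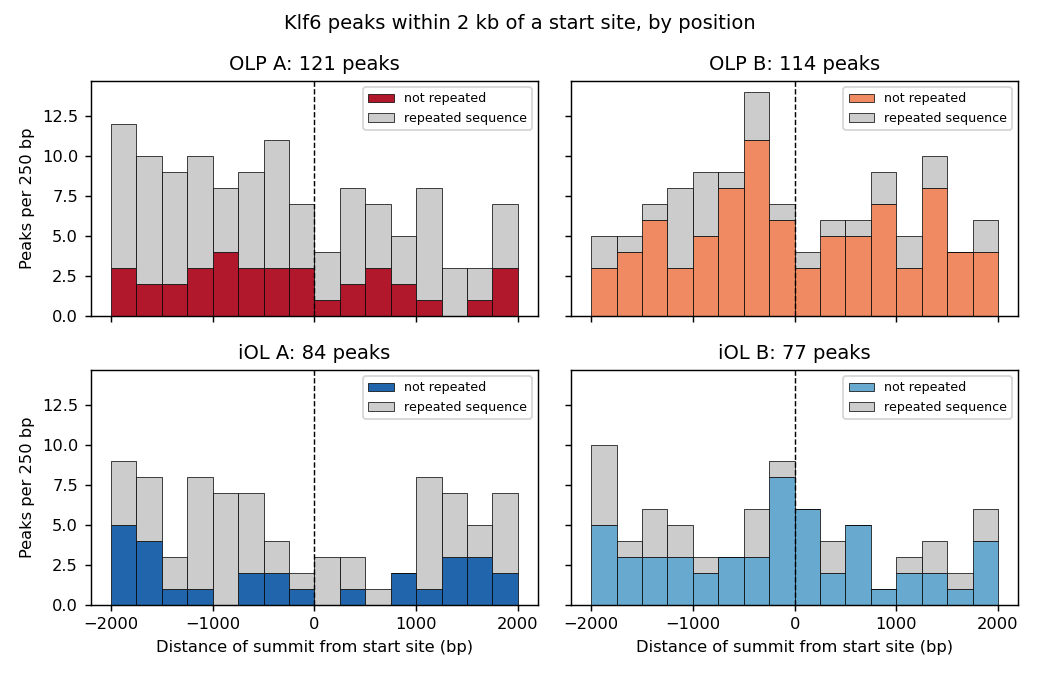
Position of each Klf6 peak within 2 kb of a TSS, as peaks per 250 bp (y axis) by signed distance of the summit from the TSS in bp (x axis, upstream negative), one panel per sample, with peaks of repeated sequence in grey. Most peaks of OLP A (85 of 121) and iOL A (56 of 84) are grey, few of OLP B (29 of 114) and iOL B (24 of 77), and iOL B alone has a cluster of unrepeated peaks at the TSS.

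Measured against the reference annotation of the same genome, which lists more start sites, the proximity to a TSS was lower than the space around start sites would give. Sequence within 2 kb of a start site in this annotation makes up 7.66% of the genome. Of the peaks, 3.20% (95% Wilson interval 2.90% to 3.52%) in OLP A, 3.90% (3.49% to 4.35%) in OLP B, 3.17% (2.85% to 3.53%) in iOL A and 3.19% (2.76% to 3.67%) in iOL B had their summit there. Per megabase, the first 250 bp to either side of a start site held 1.81 peaks in OLP A against 4.87 over the whole genome, 1.48 against 3.06 in OLP B, 1.54 against 4.0 in iOL A and 1.41 against 2.26 in iOL B. In iOL B these first 250 bp held more peaks per megabase than the bins beyond them, which ranged from 0.670 to 1.21 out to 5000 bp. No input track was analysed, so how evenly these positions could be sampled was not tested. Not every peak near a TSS by the lists was near a start site of this annotation. Within 2 kb of one lay 107 of 121 in OLP A, 106 of 114 in OLP B, 79 of 84 in iOL A and 71 of 77 in iOL B. The peaks of D17Ertd648e and Znf41-ps, within 100 bp of a TSS by the lists, lay 37985 and 3839 bp from one.

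The genes near these peaks were mostly protein-coding, 287 of 333 (86.2%) by the RefSeq table, which matched 332 of the 333 names, and 30 (9.01%) were long non-coding RNA genes. Each peak was counted for a single gene, although some also lay within 2 kb of the TSS of another gene. These were 12 peaks in OLP A, 13 in OLP B, 4 in iOL A and 10 in iOL B. By the summit, between 46.4% (iOL A) and 58.7% (OLP A) of the peaks were intergenic in the reference annotation and between 32.5% (iOL B) and 42.9% (iOL A) were intronic. The largest named families were those of the sensory receptors. Vomeronasal receptors, the pheromone receptors of the vomeronasal organ, had 20 genes with a peak (6.01% of the 333, against 4.19% of the 3653 genes named for the other gene-annotated peaks), and olfactory receptors had 16 (4.80% against 7.04%). Of the 24 vomeronasal receptor peaks 17 were repeated sequence, and of the 18 olfactory receptor peaks 7 were. Predicted genes with a Gm number made up 37 of the genes (11.1% against 7.88%), and 38 of their 46 peaks were repeated. Ribosomal protein genes had 5 members, Rps29 among them (1.5% against 0.192%), and histone genes 3 (0.901% against 0.0547%), and 3 of the 6 peaks of each family were repeated.

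Klf6 peaks near a TSS were found again in the other replicate of the same stage less often than the gene-annotated peaks that lay farther away. A peak was called found when any peak of the other replicate lay within 500 bp. Near a TSS this held for 14 of 121 peaks in OLP A (11.6%, 95% Wilson interval 7.02% to 18.5%), 14 of 114 in OLP B (12.3%, 7.46% to 19.6%), 10 of 84 in iOL A (11.9%, 6.60% to 20.5%) and 9 of 77 in iOL B (11.7%, 6.27% to 20.7%). The share among all peaks of the sample was 27.1%, 42.0%, 31.9% and 55.0% in the same order. Among the other gene-annotated peaks it was 21.3%, 35.7%, 26.4% and 47.6%. The difference averaged -20.9 ± 11.5 percentage points (SD, n = 4 samples) and was negative in 4 of 4 samples (exact sign-flip permutation test, two-sided, p = 0.125, the smallest that 4 samples can give).

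Repeated sequence moved with this result. Each peak was split into overlapping runs of 32 bases, and it was classed as repeated sequence if over 50% of these runs are present at several places in the genome. Near a TSS, 70.2% of the peaks in OLP A, 25.4% in OLP B, 66.7% in iOL A and 31.2% in iOL B were repeated, and among the other gene-annotated peaks 86.7%, 72.1%, 87.9% and 84.5% were. The share near a TSS was lower in every sample (mean difference -34.4 ± 18.3 percentage points, SD, n = 4, exact sign-flip permutation test, p = 0.125), and most so in the B samples. Among unrepeated peaks alone, with all peaks of the other replicate still counted, the share found there averaged 6.68% near a TSS and 6.78% elsewhere (exact sign-flip permutation test, p = 1.0, difference -0.0980 ± 5.64 percentage points, SD, n = 4). Among repeated peaks it averaged 22.4% and 38.7%, lower near a TSS in 4 of 4 samples (exact sign-flip permutation test, p = 0.125). The shares found in the other replicate are again scored between the replicates of a stage, so these values are not independent either.

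The enrichment of the peaks near a TSS was also lower when repeated peaks were included. The median fold enrichment, the authors' ratio of tags over the background expected by the peak caller, was 12.2 in OLP A, 7.24 in OLP B, 12.1 in iOL A and 7.40 in iOL B, against 14.6, 9.01, 14.9 and 10.6 for the other gene-annotated peaks. The difference averaged -2.53 ± 0.588 (SD, n = 4) and had the same sign in 4 of 4 samples (exact sign-flip permutation test, p = 0.125). With repeated peaks left out it was -0.0738 (exact sign-flip permutation test, p = 1.0), and with at least 10 tags -4.17 (exact sign-flip permutation test, p = 0.125). These values rest on few reads, with a median of 8 tags in each A sample and 12 in each B sample. The highest number of tags, 810 in iOL B, belonged to a peak of 2700054A10Rik, an uncharacterised transcript, whose enrichment was low (4.66-fold at most over its 3 peaks, which held 204 tags or more).

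**Figure D2:**
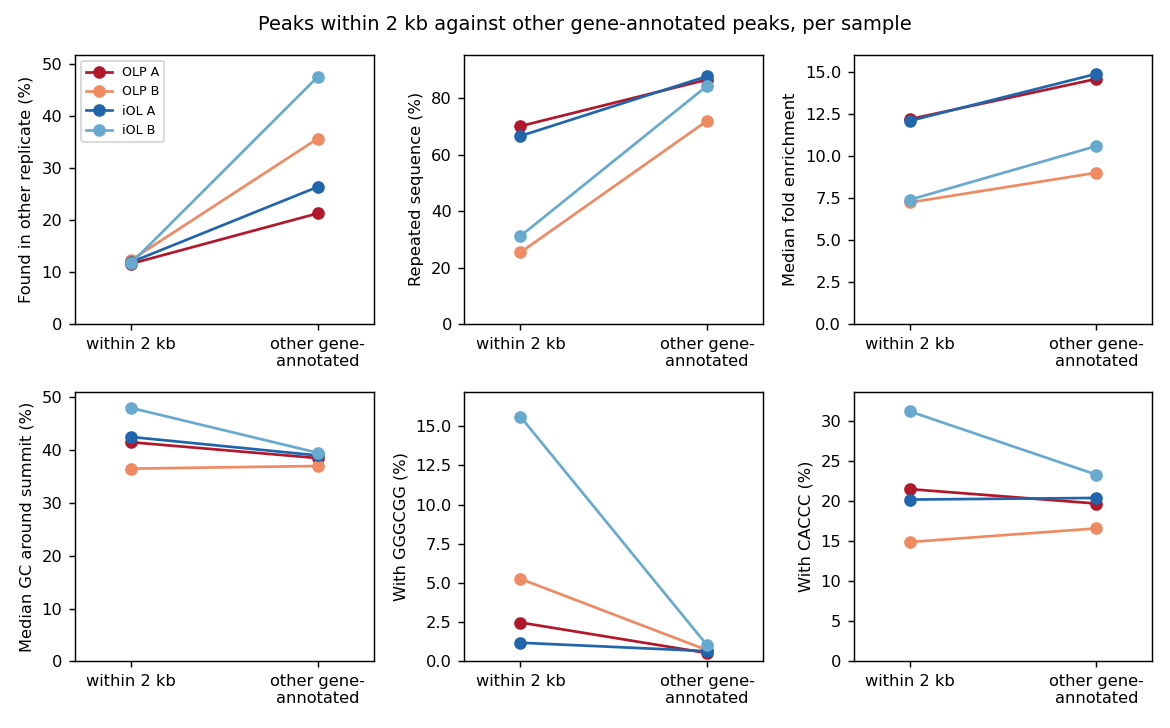
Peaks within 2 kb of a TSS (left of each panel) against the other gene-annotated peaks of the same sample (right), with one line per sample and the measure on the y axis of each panel. The share found in the other replicate, the share of repeated sequence and the median fold enrichment are lower near a TSS in all 4 samples, and the share with GGGCGG is higher in all 4, by 0.536 percentage points in iOL A and 14.6 in iOL B. In iOL A the GGGCGG share rests on 1 peak.

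GC boxes were rare in the peaks near a TSS, but more frequent than in the other gene-annotated peaks. In the 200 bases around the summit, GGGCGG was found on either strand in 3 of 121 peaks of OLP A (2.48%), 6 of 114 of OLP B (5.26%), 1 of 84 of iOL A (1.19%) and 12 of 77 of iOL B (15.6%). The other gene-annotated peaks held it in 0.534%, 0.718%, 0.655% and 1.03%. The mean difference was 5.40 ± 6.33 percentage points (SD, n = 4), positive in 4 of 4 samples (exact sign-flip permutation test, p = 0.125), and it was 2.34 without iOL B. The 1 peak of iOL A was that of Trim41, a region counted in each of the other samples as well. The sign in iOL A thus rests on this region alone. Windows of the same length at all start sites of the reference annotation (n = 86841) held GGGCGG in 29.7%, above the share of the peaks in each sample. These windows are centred on start sites, while the summits lie up to 2 kb away, so the positions are unlike. Of the 20 peaks within 100 bp of a TSS, 7 held GGGCGG, 5 of them in iOL B.

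The GC content around the summit was highest in iOL B as well. Its median was 41.5% in OLP A, 36.5% in OLP B, 42.5% in iOL A and 48.0% in iOL B near a TSS, against 38.5%, 37.0%, 39.0% and 39.5% elsewhere. The mean difference of 3.62 ± 3.71 percentage points (SD, n = 4) was positive in 3 of 4 samples (exact sign-flip permutation test, p = 0.250) and fell to 2.0 without iOL B. In windows centred on the start sites of the reference annotation the median was 55.5%, and in the 20 peaks within 100 bp of a TSS it was 57.0%. CACCC, which was counted separately and can overlap GGGCGG by a few bases, was found in 21.5%, 14.9%, 20.2% and 31.2% of the peaks near a TSS and in 19.7%, 16.6%, 20.4% and 23.3% of the others, with no one direction over the samples (mean difference 1.94 ± 4.16 percentage points, SD, n = 4, exact sign-flip permutation test, p = 0.625). Without repeated peaks, the CACCC difference was 11.1 percentage points (exact sign-flip permutation test, p = 0.125). The windows centred on reference start sites held CACCC in 43.3%, and 5 of the 20 peaks within 100 bp of a TSS held it.

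**Figure D3:**
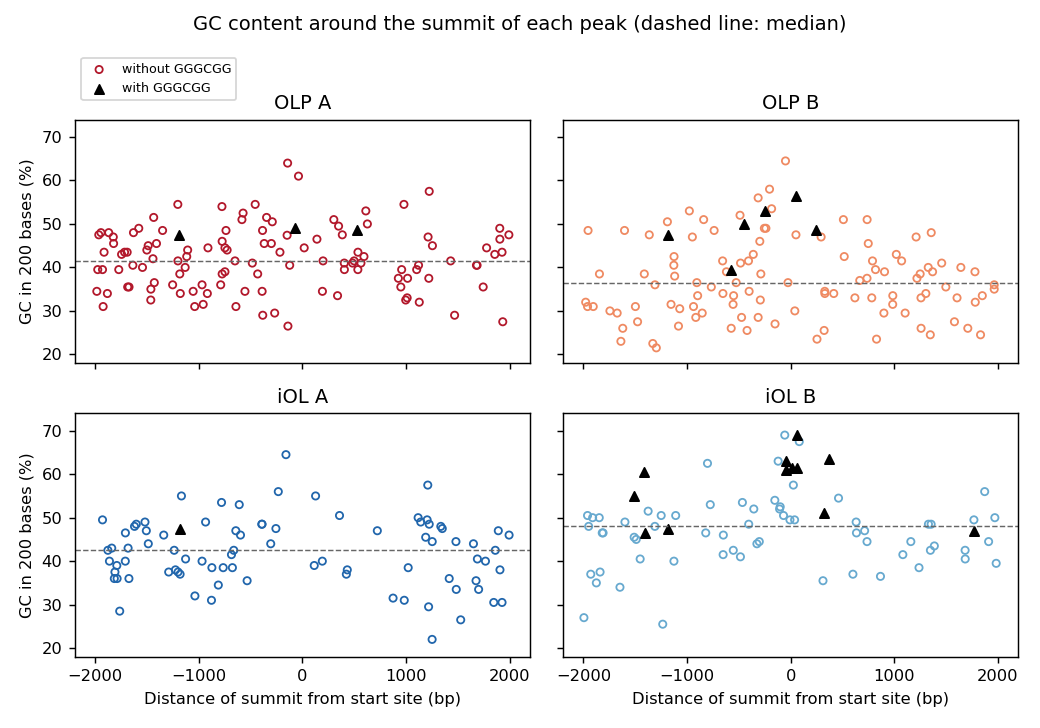
GC content in the 200 bases around each summit (y axis, percent) by distance from the TSS (x axis, bp), one panel per sample, with peaks that hold GGGCGG as black triangles and the median of each sample as a dashed line. The peaks of highest GC lie near the TSS, and iOL B has most of the triangles, 12 in all.

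The peaks within 100 bp of the TSS had a higher GC content than those beyond 1000 bp in the 3 samples that had any. Their median GC content was 49.0% in OLP A (3 peaks), 47.5% in OLP B (5) and 61.2% in iOL B (12), against 41.5%, 34.5% and 46.5% beyond 1000 bp. iOL A had 0 peaks within 100 bp. Of these 20 peaks 7 held GGGCGG, 5 of them in iOL B, and 2 were repeated. Of these 20 peaks, 0 had a peak in the other replicate of the same stage, which allows a share of up to 15.0% by counting error alone. They had 8 to 28 tags and enrichments of 5.10-fold to 12.2-fold. Of the 20, 4 had a false discovery rate of 5% or more, all of them in iOL B. Among all peaks near a TSS, 13 of 77 in iOL B had such a rate, and 0 in the other samples. In iOL B 67 of the 1165 other gene-annotated peaks had it as well. With a false discovery rate under 5% required, the mean GGGCGG difference from the other gene-annotated peaks was 4.63 percentage points.

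In iOL B the peaks at the TSS included those of Actb, which encodes β-actin (100 bp upstream, 23 tags, 7.90-fold), Ncam1, a neural cell adhesion molecule (61 bp downstream, 10 tags, 5.29-fold), Dctn5, a dynactin subunit (43 bp upstream, 12 tags, 7.40-fold), and Tob2, an antiproliferative BTG/Tob protein (10 bp downstream, 16 tags, 8.46-fold). The Dctn5 peak also lay within 2 kb of the TSS of Palb2, and the Ncam1 peak had a false discovery rate of 6.22%. The Dctn5 and Tob2 windows shown above hold GGGCGG, Tob2 on both strands. The others in iOL B were Uspl1, Zswim6, Mrps31, Znrd1as, Gm16677, Gm20337, D17Ertd648e and Malat1. In OLP A they were Prox1, a homeobox factor (38 bp upstream, 10 tags, 12.2-fold), Leng1 and Gm12530. In OLP B they were Egr1, Malat1, Eps15, 2810454H06Rik and Znf41-ps.

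Malat1 and Egr1 had peaks close to the TSS in both stages, each in the B samples. At Malat1, an abundant nuclear long non-coding RNA, peaks lay 52 bp downstream in OLP B (28 tags, 7.92-fold) and 39 bp downstream in iOL B (21 tags, 5.10-fold), and they are not repeated. At Egr1, an immediate early transcription factor, peaks lay 49 bp upstream in OLP B (12 tags, 6.76-fold) and 120 bp upstream in iOL B (11 tags, 8.46-fold), with 64.5% and 63.0% GC. Neither A sample had a peak within 500 bp of either region.

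Of the 343 regions, 308 (89.8%) were found in 1 sample, 25 (7.29%) in 2, 6 (1.75%) in 3 and 4 (1.17%) in all 4. Among the regions merged from all peaks of the series, 70.9% were found in 1 sample and 7.51% in all 4. The number shared by a pair of samples was highest for OLP A with iOL A (16 regions, 13.3% and 19.3% of their regions), followed by OLP A with OLP B (14), OLP A with iOL B (13), OLP B with iOL B (11), iOL A with iOL B (9) and OLP B with iOL A (4, or 3.57% and 4.82%). The A samples of the 2 stages thus shared more regions than the replicates of either stage did. A region counted as repeated when 50% or more of its peaks near a TSS were, which held for 41.6% of the regions found in 1 sample for 84.0% of those found in 2, for 83.3% of those in 3 and for 50% of those in all 4.

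**Figure D4:**
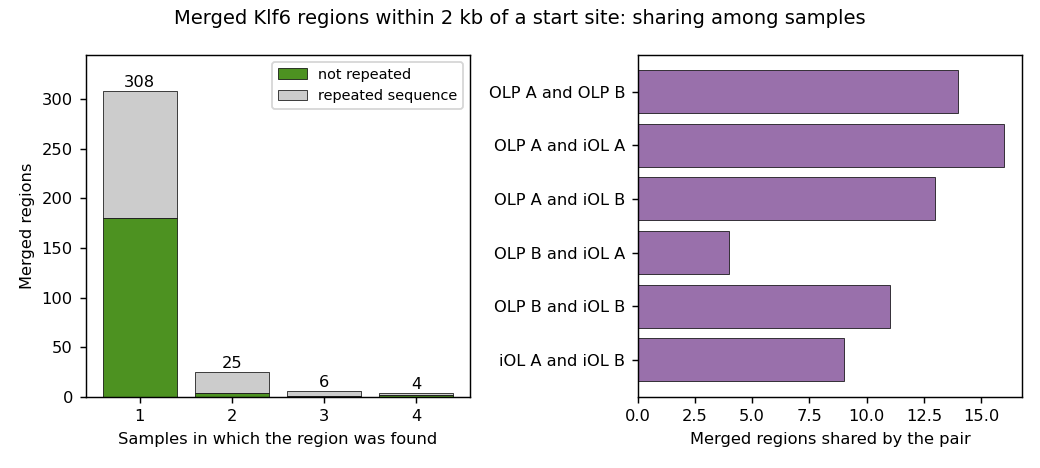
Left, merged regions (y axis) by the number of samples in which they were found (x axis), split by repeated sequence. Right, regions shared by each pair of samples (x axis), from 4 for OLP B and iOL A to 16 for OLP A and iOL A.

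Of the regions found in all 4 samples, that of Slc24a3 had the highest enrichment. Slc24a3 encodes a potassium-dependent sodium-calcium exchanger. Its peaks reached 23.0-fold in OLP A (15 tags), 24.8-fold in OLP B (24 tags), 39.7-fold in iOL A (18 tags) and 29.6-fold in iOL B (31 tags), with summits 1126 to 1132 bp upstream and within 6 bp of each other. Both iOL values exceeded OLP A and OLP B, but fold enrichment was not normalized between samples. All of its runs of 32 bases recur in the genome. The region of Prr14, a nuclear lamina protein, was found at 1580 to 1604 bp upstream with 15.0-fold, 6.85-fold, 14.9-fold and 12.7-fold in OLP A, OLP B, iOL A and iOL B and 7 to 13 tags, and 56.7% to 80.9% of its runs of 32 bases recur.

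At Hist1h4h, a gene of histone H4 in the main histone cluster, the enrichment was 22.4-fold in OLP A (11 tags), 7.19-fold in OLP B (29 tags), 21.9-fold in iOL A (14 tags) and 8.98-fold in iOL B (22 tags). At Trim41, a ubiquitin ligase, it was 11.7-fold (7 tags), 7.88-fold (12 tags), 15.9-fold (9 tags) and 10.6-fold (14 tags) in the same order. At both genes the A samples were above the B samples in fold and below them in tags, while the stages overlapped. The summits of the 4 samples lay within 12 bp of each other at Hist1h4h and within 6 bp at Trim41. With at least 10 tags required, the Trim41 region remained in 2 samples and the Hist1h4h region in 4.

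**Figure D5:**
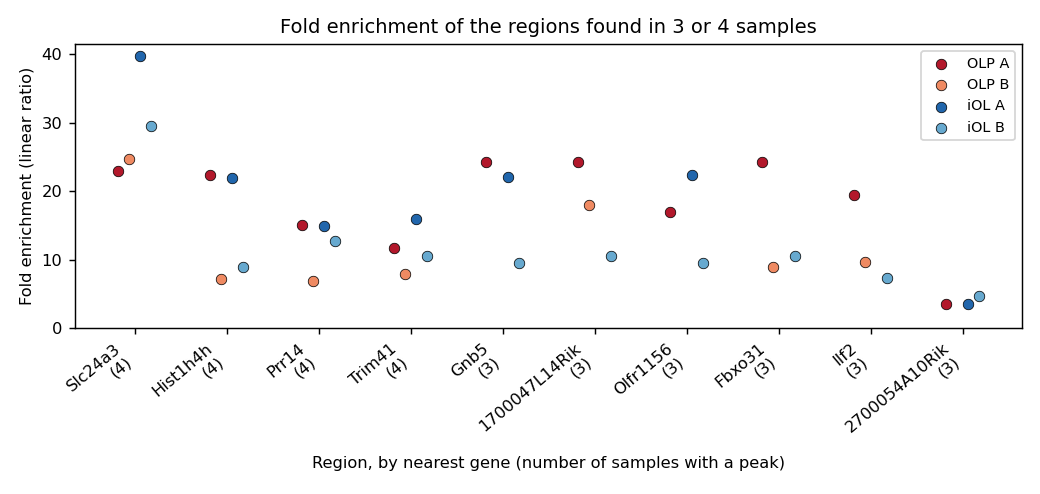
Fold enrichment (y axis, linear ratio as deposited) at the 10 regions found in 3 or 4 samples, named by the nearest gene with the number of samples in parentheses (x axis), one point per sample. Slc24a3 is highest in OLP B, iOL A and iOL B, and 2700054A10Rik is lowest in each of its 3 samples.

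The regions of Trim41, Hist1h4h and Ilf2, the last a gene of a double-stranded RNA-binding protein, were the 3 of the 10 regions found in 3 or 4 samples that were not classed as repeated. Single peaks varied, with 26% to 48.9% of the runs of 32 bases recurring at Trim41, 15.6% to 72.6% at Hist1h4h and 23.2% to 84.9% at Ilf2. All 3 hold the B box letters beside the summit, as does the repeated region of Fbxo31. This motif was searched after the sequences had been read, so its counts are a description. At Trim41 it reads GGTTCGA, and the GGGCGG counted above as a GC box follows 4 bases later. At Hist1h4h and Ilf2 it reads TCGATCC, on the opposite strand, within a stretch of 76 bases that is identical in the windows of the 2 genes. The Ilf2 peaks lay 297 to 302 bp upstream in OLP A, OLP B and iOL B, with 19.4-fold, 9.70-fold and 7.40-fold and 8, 25 and 10 tags.

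Over all samples, 25 of the 396 peaks near a TSS (6.31%) held the B box letters, in 14 of the 343 regions. The letters were also in 153 of the 7459 other gene-annotated peaks (2.05%), 552 of the 28425 peaks with no gene listed (1.94%) and 3.32% of the reference start sites. A region counts once for each of its peaks, 4 times each at Trim41 and Hist1h4h, so the 25 peaks are not independent. By sample it was 7 of 121 in OLP A, 8 of 114 in OLP B, 3 of 84 in iOL A and 7 of 77 in iOL B. Of the 25, 12 had a peak in the other replicate of the stage. So did 79 of the 153 other gene-annotated peaks with the letters and 294 of the 552 with no gene listed. The peaks of Sspn, a dystrophin-associated protein, held them in both A samples, 1168 and 1203 bp upstream, and are repeated. The single-sample members were Casc5 and Ctnna3 in OLP A, Ndufs7, B230208H11Rik, Ddx19a and 4930555B11Rik in OLP B, and Acp6, Actb and Mrps31 in iOL B, with 7 to 23 tags. The letters are short, and a match does not show that a tRNA gene is present, since tRNA genes are not annotated in the reference used.

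The other regions found in 3 samples were those of Gnb5, Olfr1156, Fbxo31, 1700047L14Rik and 2700054A10Rik, all repeated. Gnb5, a G protein β subunit, had 24.3-fold in OLP A, 22.0-fold in iOL A and 9.51-fold in iOL B. The 1700047L14Rik region upstream of its TSS had 24.3-fold in OLP A, 18.0-fold in OLP B and 10.6-fold in iOL B, and this transcript had another region downstream, of 29.2-fold in OLP A and 12.4-fold in OLP B.

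Among the 5 peaks of highest enrichment in each sample, those not yet named were of Rps29, a ribosomal protein (29.2-fold in OLP A), Adck2 (24.3-fold in OLP A), Limk2, a kinase of the actin cytoskeleton (16.9-fold in OLP B and 11.6-fold in iOL B), Gm10408 (13.5-fold in OLP B), Fam227b (27.3-fold in iOL A), Cd44, a hyaluronan receptor (23.6-fold in iOL A), Dhcr7, the last enzyme of cholesterol synthesis (16.9-fold in iOL B, 21 tags), and Zfp574 (11.6-fold in iOL B). Of these, the Fam227b peak was the least repeated, with 5.84% of its runs of 32 bases recurring. The Adck2, Fam227b, Cd44 and Dhcr7 regions were found in no other sample.

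Between the stages, 7 of the 343 regions (2.04%) were found in both OLP samples and neither iOL sample, and 2 (0.583%) in both iOL samples and neither OLP sample. Among all merged regions of the series the shares were 2.46% and 1.62%. The OLP regions were those of Padi4, Rdh9, Gm10408, Vmn1r2, Gm4133, 3830403N18Rik and the downstream one of 1700047L14Rik. Padi4, a peptidylarginine deiminase, had summits 565 bp and 518 bp downstream, with 8 and 14 tags and 7.65-fold and 7.88-fold in OLP A and OLP B, and 0% of its runs of 32 bases recur. Only exact runs were counted, and short units of similar sequence follow one another in its window above. Rdh9, a retinol dehydrogenase, had its summit at the same base in both samples, 1220 bp downstream, with 14.6-fold and 10.8-fold.

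The iOL regions were those of Dux, a double homeobox gene of the early embryo, and Vmn2r69, a vomeronasal receptor. Dux had 2 peaks in iOL A (28 and 12 tags, 4.92-fold and 5.91-fold) and 1 in iOL B (27 tags, 5.31-fold), and these peaks do not overlap, so the 500 bp rule joined them into 1 region. Vmn2r69 had 12.4-fold in iOL A and 9.75-fold in iOL B. When peaks classed as repeated were left out, 1 region of the 9 remained, that of Padi4. Where a sample lacks a region, no peak was called, and detection at the depth of that sample was not tested.

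By gene list, the counts were small, as they were over all genes. Of the 21900 protein-coding genes in the RefSeq table, 286 (1.31%) had a peak within 2 kb of the TSS and 3228 (14.7%) had a gene-annotated peak farther away. Lists of this length are therefore too short for a count of 0 to set them apart. Of 21 genes of the gp130-Stat3 pathway, which carries signals of interleukin 6 type cytokines, 0 had a peak within 2 kb of the TSS, and 5 had a gene-annotated peak farther away. The counts were also 0 of 26 Klf and Sp factors, with 4 farther away, and 0 of 30 genes of the oligodendrocyte lineage and myelin, with 5 farther away. Lists of astrocyte (7 genes), microglia (7), neuron (7) and endothelial (6) genes had 0 as well.

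Of the 20 genes that the study selected by joining these ChIP lists with its expression data, 3 had a peak within 2 kb, Egr1, Kpna1 and Nfil3, and 16 had one farther away. Since the study chose them on these samples, that count is not independent. Kpna1 encodes importin α5, an adaptor that carries proteins into the nucleus. Its peak was in iOL A alone, with 48 tags, 8.42-fold enrichment and a score of 54.39, and its 200 bases hold CACCC once, on the opposite strand, and no GGGCGG. Its summit lies in an exon of the non-coding transcript Gm15564 in the reference annotation, and 33.8% of its runs of 32 bases recur in the genome. Ribosomal RNA repeats are not annotated in the reference used, so a likeness of this window to them could not be checked, and the distance to Kpna1 gives position only. Nfil3, a basic leucine zipper repressor, had a peak 1911 bp upstream in iOL B alone (11 tags, 6.34-fold, not repeated).

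Of 22 genes of nuclear import, 2 (9.09%, against 1.31% of all protein-coding genes) had a peak near the TSS. Beside Kpna1 this was Rangap1, the GTPase activator of Ran, with a peak 245 bp upstream in OLP B alone (24 tags, 5.82-fold, not repeated), whose window above holds both GGGCGG and CACCC. Another 1 gene of the list had a gene-annotated peak farther away. Kpna1 is among the genes that the study selected with these ChIP lists, and this gene list was chosen with earlier results of these data known. The share near a TSS is therefore not independent of the data.

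Of 73 genes of the cell cycle and DNA replication, 8 (11.0%, against 1.31% of all protein-coding genes) had a peak near the TSS and 12 (16.4% against 14.7%) had one farther away. This list, too, was chosen with earlier results of these data known, so its shares are a description. All 8 were in the A samples, 5 in OLP A and 4 in iOL A, with 0 in either B sample. Depdc1a had a peak in both, 369 bp upstream in OLP A (7 tags, 11.7-fold) and 390 bp upstream in iOL A (10 tags, 19.9-fold), and both are repeated. OLP A had peaks at Atad2 (642 bp upstream, 9.72-fold), Casc5 (291 bp upstream, 9.72-fold), Fanci, of the Fanconi anaemia pathway (346 bp upstream, 19.4-fold), and Dna2, a helicase-nuclease (612 bp downstream, 14.6-fold). iOL A had peaks at Cdk1, the mitotic kinase (1350 bp downstream, 12.4-fold), Rrm2, a ribonucleotide reductase subunit (1520 bp upstream, 12.4-fold), and Mis18a (1224 bp downstream, 14.9-fold). Each of these single-sample peaks had 7 to 9 tags, and 4 of the 8 genes (Dna2, Fanci, Mis18a and Depdc1a) had repeated peaks.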

How the data were processed

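Peaks of 4 Klf6 ChIP-seq samples were analysed, 2 of OLP and 2 of iOL. By the methods of the study, the authors aligned quality-filtered reads to mm9 with Bowtie2, used MACS to call the peaks of every ChIP sample separately, with input as the control, and took the genes from RefSeq. The submitters' processing notes also name CASAVA 1.8. The version of MACS and the numbers of aligned reads are not given in the sources used here. The deposited lists give tags per peak as raw counts, and tags in all peaks of a sample summed to 105081 to 152149. The score deposited by the authors is -10*log10(p), of 40.0 or more. The fold enrichment, as deposited, is a linear ratio of tags to expected background. The authors gave the false discovery rate as a percent. Start, end, summit and distance to the TSS are in bp, as the authors computed them. Replicates were not pooled, and heights were not normalized between samples.

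From these lists, peaks named for a gene and at most 2 kb from its TSS were taken with no filter on tags, 396 in all, and set against the other gene-annotated peaks of the same sample. Peaks at most 500 bp apart were called shared and merged. Sequence was read from the NCBIM37 genome, the build of mm9 (0 peaks pass a chromosome end), in 200 bases around the summit. Repeated sequence was counted with stretches of 32 bases on both strands. GENCODE start sites of this build were used beside RefSeq, and gene types came from RefSeq (GRCm38.p6, names only). Stages were compared with the exact permutation test, and the 2 kinds of peak with exact sign flips over the 4 samples. For the share found in the other replicate, the 2 samples of a stage are scored against each other, so the 4 values are not independent. Shares carry 95% Wilson intervals, which cover counting error only. The labels do not say whether the replicates came from separate animals, so p-values measure the spread between these samples.

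The genes named are those of regions found in all 4 samples or in both replicates of 1 stage, the 5 peaks of highest enrichment per sample, members of the gene lists, peaks within 100 bp of a TSS and those nearest to the 2 kb limit. Regions found in 3 samples and the B box were added after their values were seen, and a longer form of the B box letters was searched first and is not reported. Members and gene lists were chosen with earlier results of these data known. The alternatives tried were a limit of 1 kb, an FDR under 5%, minimums of 10 tags and of a score of 50, repeated peaks left out, other start sites, other gaps, a window of 100 bases, the replicate block and each sample left out. The overlap, repeat and motif functions were tested on simulated data. The tools were pysam 0.24.0, numba 0.67.0, scipy 1.17.1, pandas 2.3.3, numpy 2.4.6 and matplotlib 3.10.9 under Python 3.11.15.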

Additional observations from a re-analysis of the deposited data

Results flagged for a closer look

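Some peaks near start sites are not used in the comparisons above. The deposited lists name no gene for 516 peaks whose summit lies within 2 kb of a start site of the reference annotation. They are 1.82% of the 28425 peaks with no gene listed. Peaks near the start sites used by the authors carry a gene name and are left out of this class beforehand. The 7.66% of the whole genome within that distance is therefore not a fitting base for this share, and enrichment was not tested. The 516 peaks number 183 in OLP A, 113 in OLP B, 157 in iOL A and 63 in iOL B. Of these 516 peaks, 144 (27.9%) had a peak in the other replicate of the stage and 409 (79.3%) were repeated, and their median GC content was 39.0%. The reference lists start sites that the RefSeq annotation of the authors does not, and the part this plays was not tested.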

How the results depend on the processing

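Of 94 values recomputed under an alternative, 64 kept their direction and stayed within 1.5 times of the reported value, 23 kept their direction but moved by over 1.5 times and 7 turned in direction. No design here can pass 0.05, so a side of that threshold says nothing of stability. The regions found in all 4 samples went from 4 to 1 within 1 kb, to 2 with at least 10 tags, to 2 with a score of at least 50 and to 1 without repeated peaks. The regions of 1 stage went from 9 to 5, 5, 5 and 1 in the same order. Without repeated peaks, the stage difference in the share of all peaks turned from 0.137 to -2.14 percentage points (exact permutation test, p = 0.667), and the difference in the share found in the other replicate, with repeated peaks removed from both replicates, from -20.9 to 0.314 (exact sign-flip permutation test, p = 1.0). The difference in fold enrichment went from -2.53 to -0.0738 and the stage difference from 37 to 20.0 peaks. With the start sites of the reference annotation the stage difference was 97.5 peaks and 0.370 percentage points. The CACCC difference turned to -1.0 with a score of at least 50 and to -0.483 in 100 bases around the summit. The cause was not tested.

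With each sample left out in turn, the stage difference ran from 33.5 to 40.5 peaks and from -0.119 to 0.393 percentage points of all peaks, turning to -0.105 without OLP B and to -0.119 without iOL A. The differences from the other peaks ran from -24.6 to -15.9 for the other replicate, -2.78 to -2.32 for fold enrichment, 2.0 to 5.0 for GC, 2.34 to 7.02 for GGGCGG, -0.0240 to 3.14 for CACCC (negative without iOL B) and -40.4 to -28.1 for repeats. The stages share replicate letters only. Fitted with a replicate block by letter, the differences stayed at 37.0 peaks and 0.137 percentage points (exact sign-flip permutation test, p = 0.5, the smallest that 2 pairs can give). Medians of 8 to 12 tags leave a large sampling error on each peak.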
